A study of Mus musculus with 6 samples.

Results

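The ADAM and ADAMTS metalloprotease family was followed in testes of male mice at postnatal day 9. Its members were taken by name: array rows whose RefSeq accession belongs to a mouse gene called Adam with a number, Adamts with a number or Adamtsl with a number, with the row of highest mean log2 intensity kept for each gene. This gave 51 genes, measured by 54 rows, among the 17277 named genes and 25631 rows of the array. They were split into 21 germ line ADAM genes, 13 somatic ADAM genes and 17 ADAMTS and ADAMTS-like genes. The annotation holds 58 genes with such names, and Adamts3, Adamts6, Adamts9, Adamts14, Adamtsl1, Adamtsl3 and Adamtsl5 were not analysed here.

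The 6 arrays carried total RNA of juvenile testes, 1 sample each. The 3 Control samples were Cre-negative and the 3 Dmrt1 KO samples Cre-positive, and all 6 have the genotype label NGN-cre. The promoter behind NGN-cre, the cells in which it is active, the Dmrt1 allele and the strain are stated in no source used here. Separate animals behind the samples are stated nowhere either, and p-values therefore reflect only how these 6 samples vary, which may be technical. Cre status follows genotype, so their effects cannot be told apart.

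ADAMs are membrane proteins with a disintegrin domain and a metalloprotease domain. Many cut the outer part off other membrane proteins, a step called shedding, while others have lost the protease site and act in adhesion. In the mouse a large set of ADAM genes is active mainly in testis, and several of their products sit on the sperm surface, where they are needed for passage into the oviduct and for binding to the egg coat. ADAMTS proteins are secreted, carry thrombospondin repeats, and cut matrix molecules such as proteoglycans and procollagens. ADAMTS-like proteins share the repeats but lack the protease.

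Dmrt1 itself, the targeted gene and a transcription factor of germ cells and Sertoli cells, had log2 intensities of 13.59, 13.49 and 13.21 in the Control arrays, by replicate number, against 11.98, 12.08 and 12.27 in the Dmrt1 KO arrays. The groups did not overlap, with a log2 fold change of -1.32 ± 0.20 (SE; every group here has n = 3 arrays) and a limma adjusted p of 0.124. No source used here says whether its probes lie in the deleted part. Dmrt1 KO replicate 3 stood apart on the whole array, with Pearson's r of 0.966 to 0.973 to the other arrays across rows, which are not independent replicates. It was the array farthest from the median of the 6 in 32.0% of all rows and in 25.5% of the family. Control replicate 3 was as often the farthest within the family, also in 25.5%, against 14.0% of all rows. The leading digits of the array numbers in the titles give 3 array groups: replicate 1 of both genotypes is in array group 1, array group 2 holds Control replicates 2 and 3 with Dmrt1 KO replicate 2, and array group 3 holds only Dmrt1 KO replicate 3.

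Of the 51 members 1 passed limma's test with p-values adjusted over all rows: Adamts16, a secreted protease gene, rose in the Dmrt1 KO arrays. No member fell. Over all 25631 rows the same rule called 0.0273% higher and 0.0039% lower. At an unadjusted p of 0.05, limma gave 3 members higher (Adamts16, Adam18 and Adam32) and 0 lower, against 4.41% of all rows higher and 5.1% lower. The 3 Dmrt1 KO arrays all lay above the 3 Control arrays for Adamts16, Adam18 and Adam29 and all lay below them for Adam1a, Adam34 and Adam15. Those 6 genes are 11.8% of the family, while groups without overlap were found in 6.8% of all rows in the higher and 8.54% in the lower direction, so the share in the family was no larger than on the whole array.

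The family's differences were mostly small. Their median log2 fold change was 0.14, from -1.01 for Adam22 to 2.27 for Adamts16, beside a median of -0.02 over all rows. Of the 51 members 33 lay above 0 and 18 below it, and 39 lay within 0.5 of 0 on the log2 scale (76.5%, against 81.9% of all rows). The unadjusted 95% interval of the log2 fold change lay wholly within -1 and 1 for 27 members (52.9%, against 65.3% of all rows), which puts a 2-fold change outside it. For the others, Adamts16 and Adam18 among them, the interval reached past a 2-fold change.

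**Figure D1:**
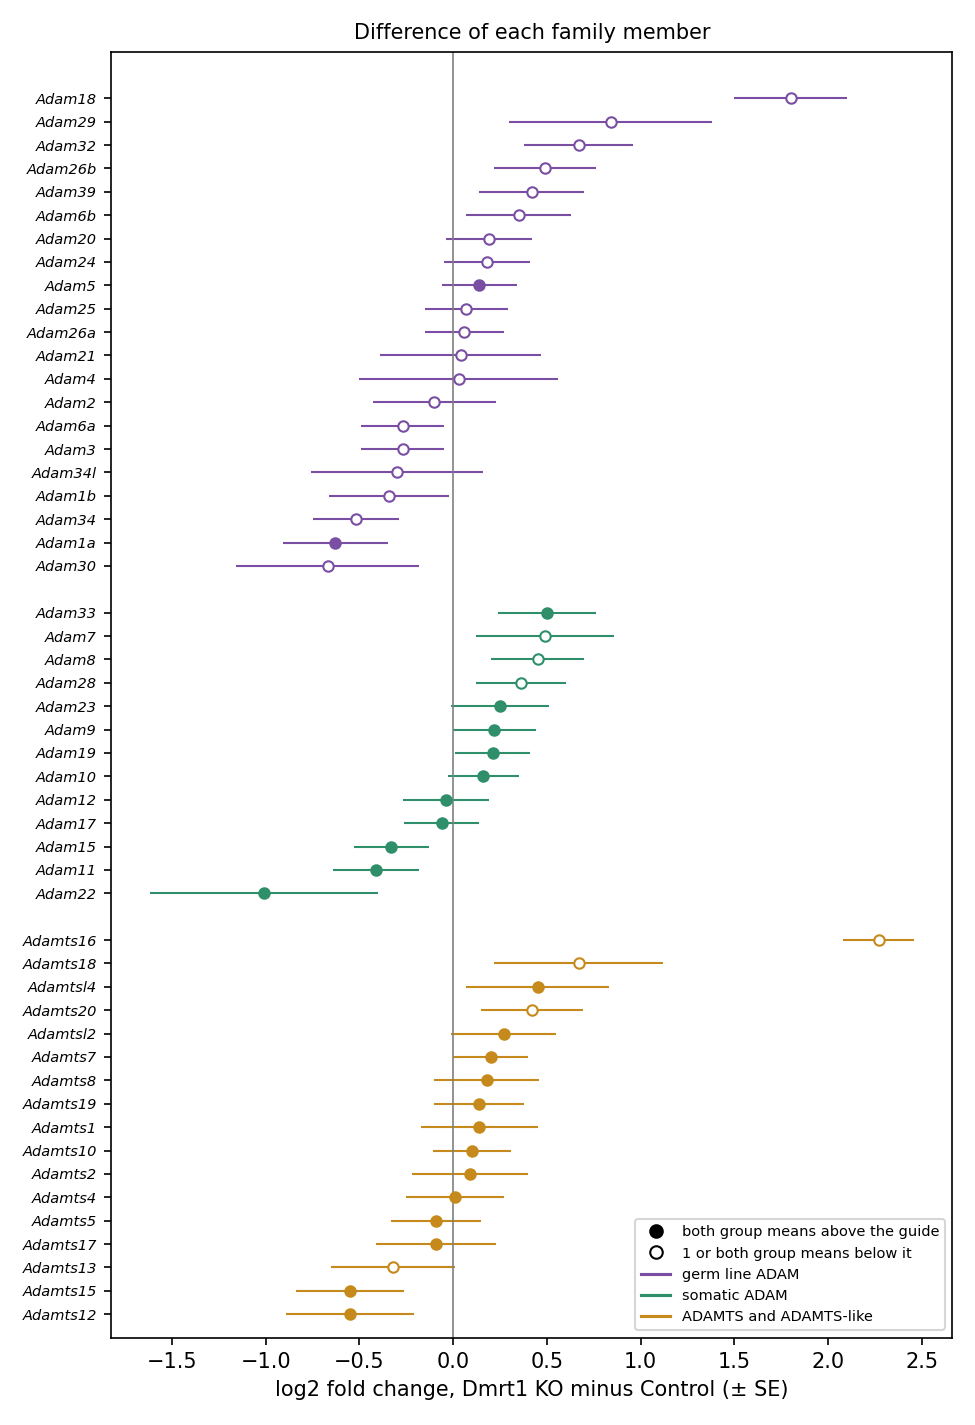
Log2 fold change (Dmrt1 KO minus Control, x axis) of each of the 51 members, with bars for limma's SE from 3 arrays per group; filled points have both group means above the background guide of 7.19 and open points do not. Adamts16 at 2.27 and Adam18 at 1.80 lie apart from the other members, and both are open points.

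Because the intensity of a row depends on its probes, levels of different genes are not compared here, and the highest mean in a role group serves only to choose a gene to give by array. A guide to background was taken from 1064 olfactory receptor rows, genes with little expected activity in this tissue, whose mean log2 intensity had a 95th percentile of 7.19. Of the germ line ADAM genes 17 of 21 (81.0%) had both group means under it, against 32.3% of all rows. The somatic ADAM genes had 3 of 13 and the ADAMTS and ADAMTS-like genes 3 of 17 in that range.

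Adam18, whose product is a sperm surface ADAM, showed the widest separation among the germ line genes. On the log2 scale it read 5.09, 4.32 and 4.98 in the Control arrays, by replicate number, against 6.60, 7.01 and 6.17 in the Dmrt1 KO arrays. The groups stood more than 1 log2 unit apart at their nearest arrays, with both means under the guide. The fitted log2 fold change was 1.80 ± 0.30 (SE, limma adjusted p = 0.147), a difference between readings under the guide whose size depends on the scale. The difference was 1.51 within array group 1 and 2.36 within array group 2. On the log2(value + 50) scale it was 0.91 (limma adjusted p = 0.165), and with array weights it passed the test (1.99, limma adjusted p = 0.0332). The adjusted p over all alternatives ran from 0.0332 to 0.561.

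Adam18 lies in a run of family genes that are direct neighbours among the protein-coding genes of assembly GRCm38.p6, in the order Adam18, Adam3, Adam5, Adam32 and Adam9. Adam32, another ADAM gene of the testis, had log2 intensities of 6.33, 7.04 and 6.79 in the Control arrays and 7.84, 7.33 and 7.0 in the Dmrt1 KO arrays. Dmrt1 KO replicate 3 fell just under Control replicate 2, so the groups overlapped, and the log2 fold change was 0.67 ± 0.29 (SE, limma adjusted p = 0.522). Of the other neighbours, Adam3 (the sperm protein cyritestin, required for binding to the egg coat) gave -0.27 ± 0.22, Adam5, also a sperm ADAM, gave 0.14 ± 0.20, and Adam9, a widely active sheddase, gave 0.22 ± 0.22. The 5 neighbours therefore held 2 genes with an unadjusted limma p under 0.05 and 3 without, against 4.41% of all rows higher and 5.1% lower. Adam18 had both means under the guide, and Adam32 had its Control mean of 6.72 under it. The run was given no test.

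Adam1a, which encodes fertilin alpha and is needed for assembly of the sperm ADAM complex, was the germ line row with the highest mean. On the log2 scale it read 8.67, 8.76 and 9.20 in the Control arrays, by replicate number, against 8.55, 8.47 and 7.71 in the Dmrt1 KO arrays. All Dmrt1 KO arrays were below all Control arrays, by 0.12 at the nearest pair, and Dmrt1 KO replicate 3 was the lowest. The log2 fold change was -0.63 ± 0.28 (SE, limma adjusted p = 0.536), and -0.37 without Dmrt1 KO replicate 3. Its neighbour Adam1b, a second fertilin alpha gene, gave -0.34 ± 0.32 with both means under the guide. Adam2, which encodes fertilin beta, the partner of both, gave -0.10 ± 0.33 with mean log2 intensities of 4.71 ± 0.35 in Control and 4.61 ± 0.58 in Dmrt1 KO arrays (SD, n = 3), also under the guide.

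Adam34, a testase gene of the mouse testis, had log2 intensities of 4.67, 4.55 and 5.0 in Control and 4.34, 3.91 and 4.41 in Dmrt1 KO arrays. The groups did not overlap but all 6 values lay far under the guide, and the log2 fold change of -0.52 ± 0.23 (SE, limma adjusted p = 0.536) was -0.16 on the log2(value + 50) scale. Adam29, another testis ADAM, had log2 intensities of 6.26, 6.23 and 6.07 in Control and 6.35, 6.28 and 8.47 in Dmrt1 KO arrays. The size of its difference rested on Dmrt1 KO replicate 3, while the other Dmrt1 KO arrays lay just above the highest Control array. The log2 fold change was 0.84 ± 0.54 (SE, limma adjusted p = 0.681) with that array and 0.13 without it, and both means were under the guide.

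Other germ line members also differed most in that array. Adam30, known from testis, had 6.92, 7.42 and 5.53 in Dmrt1 KO replicates 1, 2 and 3 against 6.72, 7.77 and 7.41 in Control replicates 1, 2 and 3. Adam4 had 7.21, 6.92 and 5.04 against 6.54, 6.52 and 6.04, with both means under the guide. In both genes Dmrt1 KO replicate 3 was the lowest of the 6 arrays, while the other 2 Dmrt1 KO arrays lay within the Control range for Adam30 and above it for Adam4.

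The germ line members not yet described overlapped between groups. Adam5 was, with Adam1a, the only germ line gene with both means above the guide, at 7.55 ± 0.22 in Control and 7.69 ± 0.13 in Dmrt1 KO arrays (SD, n = 3). Adam20, Adam24, Adam25 and Adam39, a run of neighbouring testase and related genes, gave log2 fold changes of 0.19, 0.18, 0.07 and 0.42. Adam26b, Adam26a, Adam34l and Adam34, a further run of neighbours, gave 0.49, 0.06, -0.30 and -0.52. Adam6b and Adam6a, neighbours of each other, gave 0.35 and -0.27, and Adam21 gave 0.04. Pairs such as Adam6a and Adam6b or Adam26a and Adam26b are close copies, and whether their probes take up each other's transcripts was not tested. Over the 21 germ line genes 13 lay above 0 and 8 below, with a median of 0.06 (0.17 within array group 1 and 0.10 within array group 2). The Adam24 run lay above 0 in all 4 genes, while the Adam26 and Adam6 runs held both signs. The SE in Adam20, Adam24, Adam25 and Adam39 was 0.23, 0.23, 0.22 and 0.28. Every gene of these runs had both means under the guide, so the signs carry little weight.

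**Figure D2:**
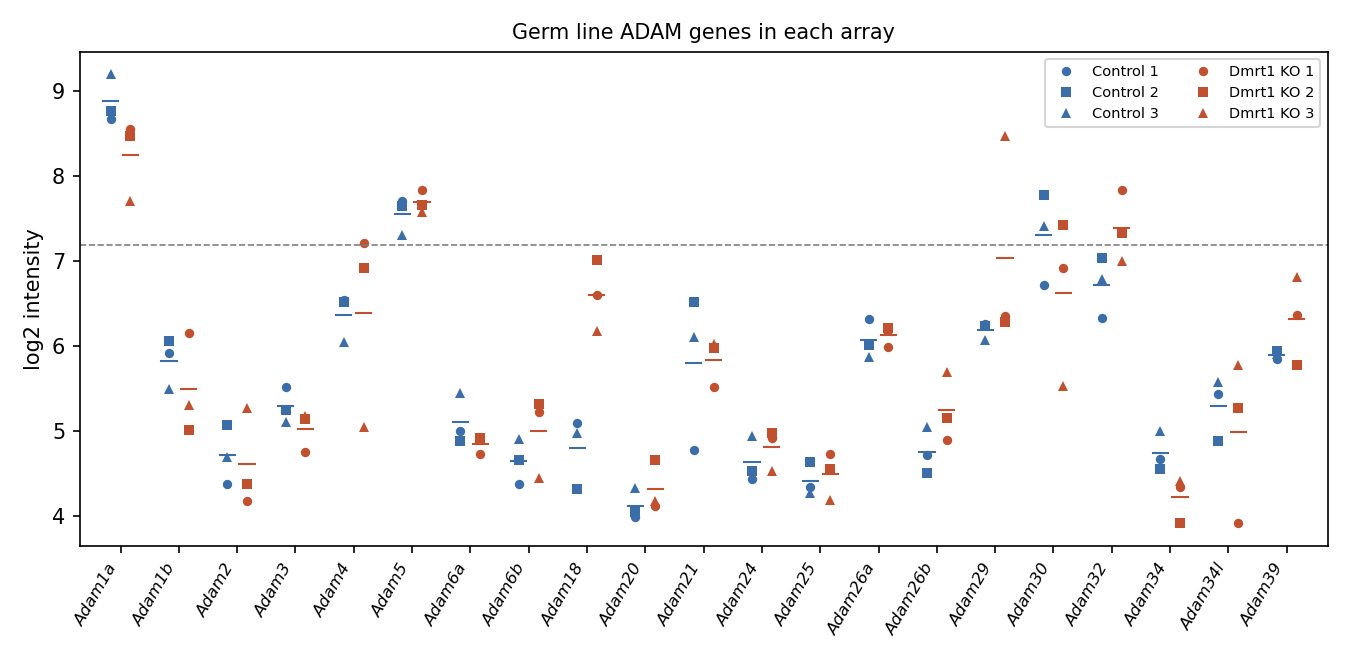
Log2 intensity (y axis) of the 21 germ line ADAM genes in each of the 3 Control (blue) and 3 Dmrt1 KO (red) arrays, with short lines for group means and a dashed line for the background guide of 7.19. Most points lie under the guide, Adam18 is the gene with the widest gap between groups, and the single high point of Adam29 is Dmrt1 KO replicate 3.

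Markers of the cells that use these genes were read beside them. Of 7 spermatid genes, which mark the late germ cells absent from testes of this age, 4 had both means under the guide. Of the 7, Izumo1, a sperm-egg fusion gene, had a log2 fold change of 1.21 ± 0.28 and Prm1, a protamine gene, of -0.78 ± 0.25 (SE), neither past the adjusted test. The 9 general germ cell markers had a median log2 fold change of -0.12, with 0 past the adjusted test and 0 past an unadjusted limma p of 0.05 in either direction. Their mean log2 intensity ran from 12.97 to 13.07 over the Control and from 12.75 to 13.07 over the Dmrt1 KO arrays. Groups did not overlap for Ddx4 (-0.12) and Nanos3 (-0.45), which were lower in Dmrt1 KO arrays, and for Zbtb16 (0.34) and Uchl1 (0.26), which were higher. The nearest arrays of Nanos3 both read 10.22 and those of Zbtb16 both read 14.15. Over all rows 6.8% lacked overlap in the higher and 8.54% in the lower direction. In whole testis RNA, fewer cells of a type and less RNA per cell cannot be told apart.

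Of the 9 somatic sheddases 7 had both means above the guide, and Adam9, Adam10, Adam12, Adam17 and Adam19 differed by at most 0.22 on the log2 scale. Adam10, which releases Notch receptors and cadherins from the membrane, had log2 intensities of 13.73, 13.60 and 13.40 in Control and 13.71, 13.86 and 13.65 in Dmrt1 KO arrays. The arrays overlapped, and the log2 fold change of 0.16 ± 0.19 (SE, limma adjusted p = 0.859) had a 95% interval from -0.29 to 0.61. Adam17, the tumour necrosis factor alpha converting enzyme, gave -0.06 ± 0.20 with an interval from -0.51 to 0.40. For Adam9 the interval ran from -0.29 to 0.74, for Adam19 (meltrin beta) from -0.24 to 0.66, and for Adam12 (meltrin alpha) from -0.56 to 0.48. In each of these 5 genes a 2-fold change in either direction lay outside the interval.

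Adam15, a sheddase of epithelial and endothelial cells, was the only somatic ADAM gene without overlap. On the log2 scale it read 11.71, 11.43 and 11.23 in the Control arrays, by replicate number, against 11.11, 11.13 and 11.13 in the Dmrt1 KO arrays. The Dmrt1 KO arrays were nearly equal and just below the lowest Control array. The log2 fold change was -0.33 ± 0.20 (SE, limma adjusted p = 0.664), and -0.21 without Control replicate 1. The second Adam15 row, at 8.06, 7.95 and 8.28 against 7.42, 7.81 and 8.34, overlapped and gave -0.24 ± 0.27.

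Adam33, a sheddase of smooth muscle and mesenchyme, gave 0.50 ± 0.26 (SE, limma adjusted p = 0.599), with Dmrt1 KO replicate 3 the highest array at 10.07. Adam8, an ADAM of leukocytes, gave 0.45 ± 0.25 and Adam28, known from lymphocytes and epididymis, gave 0.36 ± 0.24, both with means under the guide. The second row of Adam28 gave 0.06 ± 0.50. The 6 macrophage markers measured went the other way from Adam8, with 0 of 6 above 0 and a median log2 fold change of -0.44. Their mean log2 intensity ran from 9.26 to 9.72 in Control and from 8.68 to 9.17 in Dmrt1 KO arrays, so the groups did not overlap, and their part in the Adam8 values was not tested.

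Among the ADAMs without a working protease site, Adam22 varied most between arrays. It encodes a neural receptor for LGI proteins, and on the log2 scale it read 10.14, 10.24 and 10.39 in the Control arrays, by replicate number, against 10.21, 9.92 and 7.60 in the Dmrt1 KO arrays. The drop was confined among these 6 arrays to Dmrt1 KO replicate 3, and the second Adam22 row had its lowest value there too, at 7.09 against 8.56 to 9.07 in the other arrays. The log2 fold change of -1.01 ± 0.61 (SE, limma adjusted p = 0.664) was -0.19 without that array.

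Adam23, a related LGI receptor, had the highest mean of this group, with log2 intensities of 11.05, 11.36 and 11.58 in Control and 12.00, 11.32 and 11.41 in Dmrt1 KO arrays. The groups overlapped, and the log2 fold change was 0.25 ± 0.26 (SE, limma adjusted p = 0.832), at 0.95 in array group 1 and -0.15 in array group 2. Adam11, a further neural ADAM, gave -0.41 ± 0.23. All 4 LGI ligand genes had log2 fold changes above 0, with a median of 0.33, and 0 of them had an unadjusted limma p under 0.05.

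Adam7, an ADAM of the epididymis, had log2 intensities of 5.33, 4.91 and 5.60 in Control and 6.13, 6.24 and 4.95 in Dmrt1 KO arrays, all under the guide. Dmrt1 KO replicates 1 and 2 were above every Control array and Dmrt1 KO replicate 3 was not. The epididymal secretory gene Crisp1, read in the same arrays, was at 9.70, 4.11 and 6.49 in Control and 9.73, 10.96 and 4.46 in Dmrt1 KO arrays. Of other secretory genes on the same list, Lcn8 was highest in Dmrt1 KO replicate 3 at 5.37 and Lcn9 in Control replicate 1 at 6.06. Both lay under the guide in every array, so the place of their highest values says little. Defb20 ran only from 7.64 to 8.19, with its highest value in Control replicate 3. The 12 epididymis and rete markers had a median log2 fold change of 0.70 with 9 above 0. Their mean log2 intensity ran from 7.77 to 8.47 in Control and from 8.34 to 9.21 in Dmrt1 KO arrays. The epithelial genes Krt18, Cdh16, Pax8, Krt19 and Krt8 gave 1.79, 1.72, 1.14, 1.05 and 0.96, and Pax2 gave 0.01. Crisp1 gave 1.61 ± 1.83 (SE), Lcn8 0.36, Lcn9 -0.24 and Defb20 -0.08, while Aqp1 gave 0.44 and Wfdc10 -0.15. The part of these 12 genes in the Adam7 values was not tested.

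Over the 13 somatic ADAM genes the median log2 fold change was 0.21, with 8 genes above 0 (0.18 within array group 1 and 0.09 within array group 2), and 0 passed either the adjusted or the unadjusted limma threshold.

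Adamts16 belongs to the secreted proteases, is active in gonads and kidney, and is needed in the rat for descent of the testis and male fertility. On the log2 scale it read 5.43, 5.56 and 5.36 in the Control arrays, by replicate number, against 7.66, 7.66 and 7.84 in the Dmrt1 KO arrays. The SD was 0.10 within each group, and every Dmrt1 KO array was more than 2 log2 units above every Control array. The Control values lay under the guide and the Dmrt1 KO values above it. The fitted log2 fold change was 2.27 ± 0.19 (SE, 95% interval 1.84 to 2.70, limma adjusted p = 0.0127), with 2.23 in array group 1 and 2.20 in array group 2. The array that stood apart elsewhere did not do so here: without Dmrt1 KO replicate 3 the log2 fold change was 2.21 (limma adjusted p = 0.00746). With log2(value + 50) it was 1.48 (limma adjusted p = 0.0214), outside that interval, so with Control values under the guide the size of the difference depends on the scale.

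Leaving out any other array kept the size of the Adamts16 difference and ended the call. The log2 fold change was 2.26, 2.32 and 2.22 without Control replicates 1, 2 and 3, with limma adjusted p of 0.146, 0.134 and 0.134. Without Dmrt1 KO replicates 1 and 2 it was 2.30 each time, with adjusted p of 0.0742 and 0.134. Over the whole array the same fits called 0 rows without Control replicate 1, 2 or 3 or Dmrt1 KO replicate 2, with 806 to 1055 rows higher and 816 to 1250 lower at an unadjusted limma p of 0.05.

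**Figure D3:**
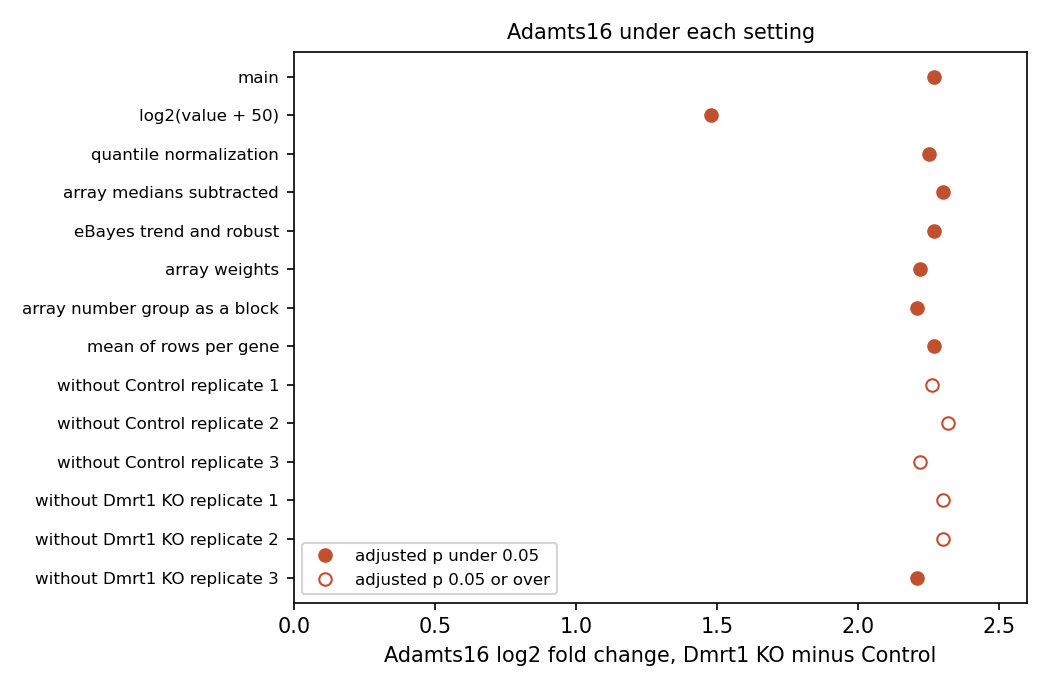
Log2 fold change of Adamts16 (Dmrt1 KO minus Control, x axis) with all 6 arrays and under each alternative that tested it, with filled points for an adjusted limma p under 0.05. All values lie between 2.21 and 2.32 except 1.48 on the log2(value + 50) scale, and the 5 open points are fits with 1 array left out.

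Adamts18, the closest relative of Adamts16 in structure, had log2 intensities of 6.67, 5.58 and 6.74 in Control and 7.50, 7.38 and 6.13 in Dmrt1 KO arrays. Dmrt1 KO replicates 1 and 2 were above all Control arrays, replicate 3 was not, and the log2 fold change was 0.67 ± 0.45 (SE, limma adjusted p = 0.693). Without Dmrt1 KO replicate 3 it was 1.11. Both means of Adamts18, 6.33 in Control and 7.0 in Dmrt1 KO arrays, lay under the guide. Adamts19, known from developing gonads, gave 0.14 ± 0.24 around means of 8.84 in Control and 8.99 in Dmrt1 KO arrays, and Adamts17, its closest relative, gave -0.09 ± 0.32.

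The proteoglycan-cleaving enzymes overlapped between groups throughout. Adamts5, an aggrecanase, had the highest mean of them, with log2 intensities of 13.92, 13.56 and 14.03 in Control and 13.85, 13.99 and 13.39 in Dmrt1 KO arrays and a log2 fold change of -0.09 ± 0.24 (SE, limma adjusted p = 0.943). Its neighbour Adamts1, which cleaves versican and is needed for ovulation in the ovary, gave 0.14 ± 0.31. Adamts4, the other classical aggrecanase, gave 0.01 ± 0.26. The neighbours Adamts8 and Adamts15 gave 0.18 ± 0.28 and -0.55 ± 0.29, and Adamts15 was at 9.03 ± 0.27 in Control and 8.47 ± 0.48 in Dmrt1 KO arrays (SD, n = 3, limma adjusted p = 0.598). Adamts20, which acts in pigment cell migration, gave 0.42 ± 0.27 under the guide.

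Adamts2, the procollagen I processing enzyme, had log2 intensities of 12.36, 12.16 and 11.36 in Control and 12.42, 11.75 and 11.98 in Dmrt1 KO arrays. These overlapped, and the log2 fold change was 0.09 ± 0.31 (SE, limma adjusted p = 0.959). Adamts10, which acts on fibrillin microfibrils, was at 11.50, 11.52 and 11.13 in Control and 11.57, 11.28 and 11.61 in Dmrt1 KO arrays, with a log2 fold change of 0.10 ± 0.21 (SE, limma adjusted p = 0.927). Adamts7 and Adamts12, both of which cleave cartilage oligomeric matrix protein, gave 0.20 ± 0.20 and -0.55 ± 0.34, and Adamts12 was lowest in Dmrt1 KO replicate 3 at 8.83. Adamts13, the von Willebrand factor protease of liver, gave -0.32 ± 0.33 under the guide.

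Of the ADAMTS-like genes, Adamtsl4, whose product binds fibrillin in the lens zonule, had log2 intensities of 10.38, 10.35 and 10.57 in Control and 10.34, 10.48 and 11.82 in Dmrt1 KO arrays. Dmrt1 KO replicate 3 was again the array that differed, and the log2 fold change of 0.45 ± 0.38 (SE, limma adjusted p = 0.780) was -0.02 without it. Adamtsl2, which binds latent TGF-beta binding protein, gave 0.27 ± 0.28.

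Control replicate 3 moved several secreted proteases together. It was the array farthest from the median of the 6 in 8 of the 17 ADAMTS and ADAMTS-like genes, against 14.0% of all rows. The 8 include Adamts16, where that median falls between the genotypes and Control replicate 3 read 5.36, close to 5.43 and 5.56 in the other Control arrays. The median shift of Control replicate 3 from the Control mean over the 17 genes was -0.27, beside 0.12 and 0.11 in Control replicates 1 and 2. Examples are Adamts1 at 12.68 against 13.57 and 13.58 in Control replicates 1 and 2, Adamts8 at 10.35 against 10.91 and 11.31, and Adamts2 at 11.36 against 12.36 and 12.16. The median log2 fold change over the 17 genes was 0.14 with all arrays (0.05 within array group 1 and 0.20 within array group 2) and 0.01 without Control replicate 3. This pattern was noticed after the values were seen.

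**Figure D4:**
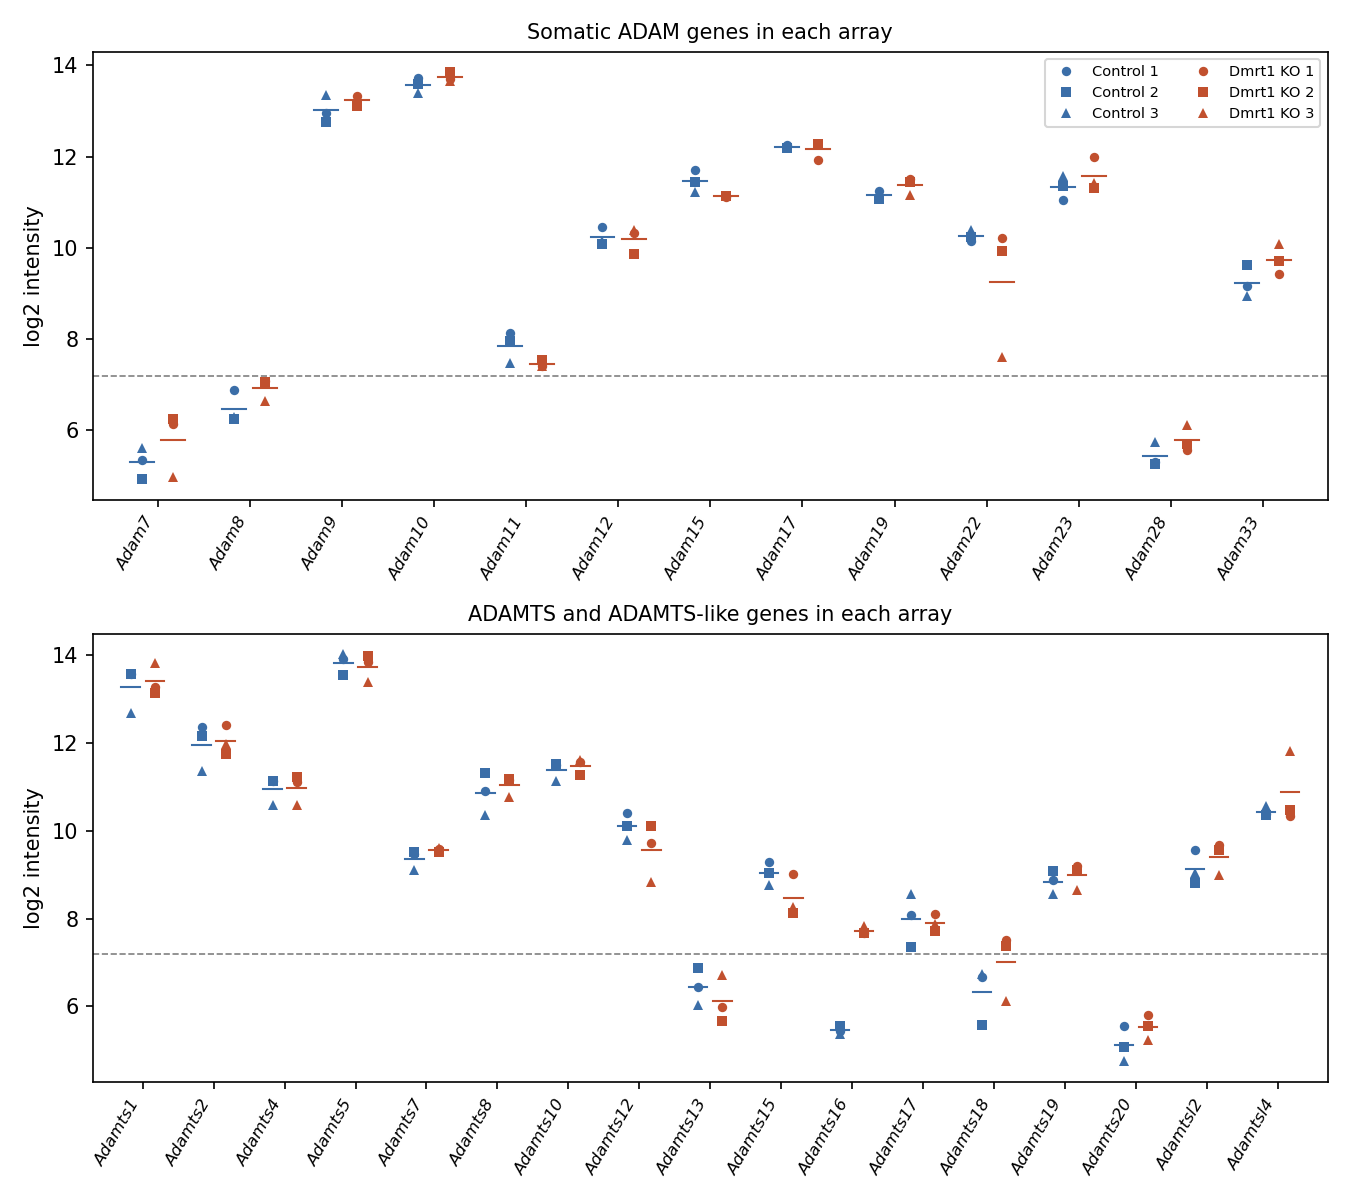
Log2 intensity (y axis) of the 13 somatic ADAM genes (top) and the 17 ADAMTS and ADAMTS-like genes (bottom) in each Control (blue) and Dmrt1 KO (red) array, with short lines for group means and a dashed line for the background guide of 7.19. Adamts16 is the gene whose groups are widely separated, while the low point of Adam22 and the high point of Adamtsl4 are both Dmrt1 KO replicate 3.

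The germ line and the other members also differed in the sequence before their start sites. RefSeq promoters of GRCm38.p6 were matched for 27 of the 51 members, 11 of them germ line and 16 not, and the 250 bases before the start were read. The germ line promoters had a median of 38.0% G and C (33.2% to 50%) and a median of 1 CG dinucleotide. The somatic ADAM promoters had a median of 66.8% (50% to 74.0%) with 18 CG dinucleotides, and the ADAMTS and ADAMTS-like promoters 64.4% (54.0% to 78.0%) with 15. The GC box GGGCGG, on either strand, was found in 0 of 11 germ line promoters and in 10 of the other 16, against 32.9% of 27025 promoters, with 1 taken per gene. The letters ACATTGT, the core of known DMRT1 sites, were in 0 of 27 member promoters on either strand, against 2.58% of all promoters. Adamts16 and Adam18 are not among the 27. These are descriptions of the letters in the window and say nothing of binding.

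The promoters of Adam1a and Adam15 show this contrast in the 2 members that lay above the guide and had every Dmrt1 KO array below every Control array. Both are on the minus strand of GRCm38.p6, at chr5:121521696-121521945 for Adam1a and chr3:89350029-89350278 for Adam15, and are printed in the direction of transcription with the GC box in capitals. Adam1a has 38.0% G and C, 4 CG dinucleotides and no GC box, and Adam15 has 62.0%, 18 CG dinucleotides and 1 GC box.
Adam1a: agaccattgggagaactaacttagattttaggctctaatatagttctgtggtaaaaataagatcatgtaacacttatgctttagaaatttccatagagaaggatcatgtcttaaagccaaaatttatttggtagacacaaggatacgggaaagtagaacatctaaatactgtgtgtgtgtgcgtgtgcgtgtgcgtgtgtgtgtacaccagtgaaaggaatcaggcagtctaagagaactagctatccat
Adam15: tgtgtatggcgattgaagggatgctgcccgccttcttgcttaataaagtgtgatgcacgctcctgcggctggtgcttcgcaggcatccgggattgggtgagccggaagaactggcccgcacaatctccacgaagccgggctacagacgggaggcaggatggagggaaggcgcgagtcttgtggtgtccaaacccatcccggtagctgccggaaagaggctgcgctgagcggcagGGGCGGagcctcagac

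Genes that act with the family were counted from lists set beside the member list. Of the natural inhibitors, Timp1, Timp2, Timp3, Timp4 and Reck, 0 of 5 had an unadjusted limma p under 0.05. Timp3, an inhibitor of several ADAM and ADAMTS proteases, had a log2 fold change of -0.01 ± 0.22 (SE). Timp4 was the inhibitor without overlap, with 8.13, 8.33 and 7.98 in Control against 7.18, 7.96 and 7.73 in Dmrt1 KO arrays. Control replicate 3 and Dmrt1 KO replicate 2 were almost equal, and the log2 fold change was -0.52 ± 0.25 (limma adjusted p = 0.563). Over all rows 6.8% lacked overlap in the higher and 8.54% in the lower direction. Furin, which cuts off the inhibitory propeptide, gave 0.06 ± 0.19, and Pcsk7, a related convertase, -0.20 ± 0.25, the 2 of 4 listed convertases that were measured.

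Of 8 regulators of ADAM10 and ADAM17, 0 passed the adjusted test, and 3 tetraspanin partners of ADAM10 had groups without overlap. Over all rows 6.8% lacked overlap in the higher and 8.54% in the lower direction, and the list was chosen with earlier results known. Tspan15, a tetraspanin that directs ADAM10 to cadherins, had log2 intensities of 11.54, 11.35 and 11.35 in Control and 12.49, 12.37 and 12.25 in Dmrt1 KO arrays. Every Dmrt1 KO array was above every Control array, with a log2 fold change of 0.96 ± 0.19 (SE, limma adjusted p = 0.194). Tspan33, another ADAM10 tetraspanin, was at 9.93, 10.01 and 9.34 in Control and 9.01, 8.78 and 8.52 in Dmrt1 KO arrays, and Tspan17 at 13.07, 13.03 and 13.17 against 12.61, 12.34 and 12.10. Both were lower in every Dmrt1 KO array, with log2 fold changes of -0.99 ± 0.25 (limma adjusted p = 0.287) and -0.74 ± 0.21 (limma adjusted p = 0.325).

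The other ADAM10 tetraspanins Tspan5, Tspan10 and Tspan14 gave 0.03, -0.08 and -0.06, and the ADAM17 partners Rhbdf1 and Rhbdf2 gave 0.02 and 0.17. The list thus held 1 higher and 2 lower genes at an unadjusted limma p of 0.05, against 4.41% and 5.1% of all rows. Its median log2 fold change was -0.02, and the list was given no test.

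**Figure D5:**
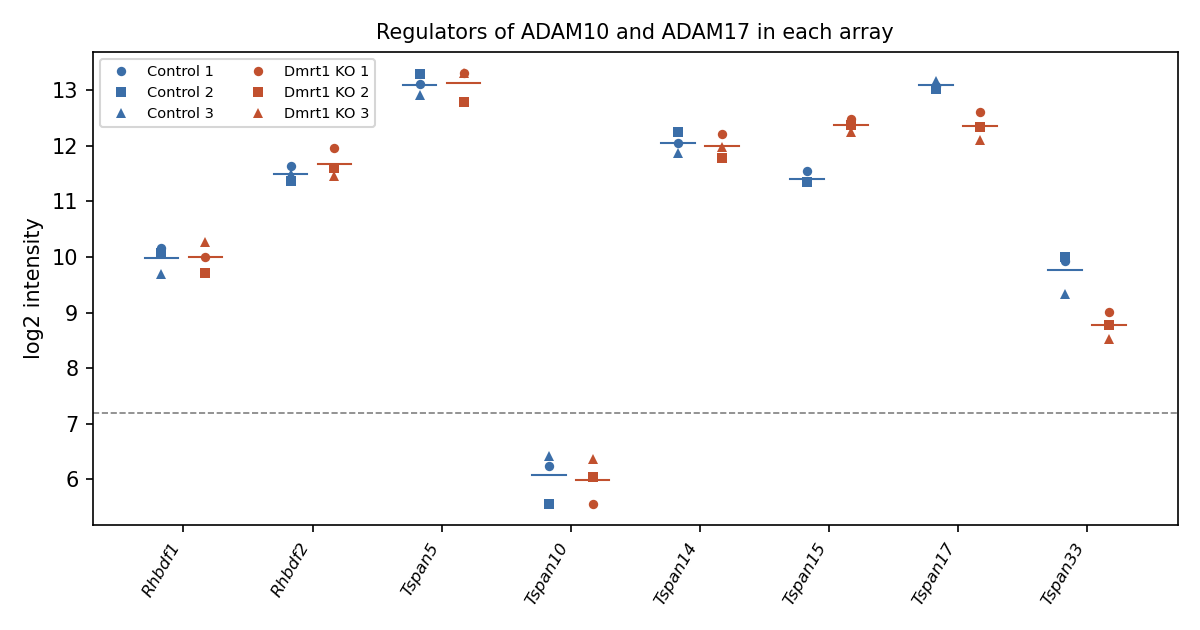
Log2 intensity (y axis) of 8 regulators of ADAM10 and ADAM17 in each Control (blue) and Dmrt1 KO (red) array, with short lines for group means and a dashed line for the background guide of 7.19. Tspan15 is higher and Tspan17 and Tspan33 are lower in all 3 Dmrt1 KO arrays, and the other 5 genes overlap between groups.

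Of 17 measured substrates of ADAM10 and ADAM17, 4 were higher and 1 lower at an unadjusted limma p of 0.05. Over all rows the shares were 4.41% higher and 5.1% lower, and the list was given no test. Of the 17, 0 passed the adjusted test, and their median log2 fold change was 0.21. Cdh1, the epithelial cadherin, differed most, at 10.32, 9.30 and 10.48 in Control and 13.04, 12.89 and 12.17 in Dmrt1 KO arrays (limma adjusted p = 0.083). The Notch ligand gene Dll1 gave 0.73 ± 0.21, the ephrin receptor gene Epha2 gave 0.98 ± 0.38, and the growth factor gene Areg, under the guide, gave 0.58 ± 0.20 (SE). For Epha2 the groups overlapped, with Control replicate 3 at 10.5 above Dmrt1 KO replicate 1 at 10.24. Il6ra, an interleukin 6 receptor gene, gave -0.77 ± 0.24. Of the epithelial genes in the epididymis and rete list, Krt18 gave 1.79 ± 0.33, Cdh16 1.72 ± 0.40 and Pax8 1.14 ± 0.23 in the same arrays. Krt8 and Krt19 gave 0.96 ± 0.41 and 1.05 ± 0.40 with groups that overlapped, and Pax2 gave 0.01 ± 0.35. Of the 12 genes on that list 9 lay above 0, while Lcn9, Defb20 and Wfdc10 lay below it. The part of these genes in the Cdh1 values was not tested.

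Of 16 measured ADAMTS substrates, 1 was higher and 0 lower at an unadjusted limma p of 0.05, and 0 passed the adjusted test. That gene was Bcan, the proteoglycan brevican, at 11.50, 11.19 and 11.22 in Control and 11.77, 12.01 and 11.84 in Dmrt1 KO arrays (log2 fold change 0.57 ± 0.20, SE, limma adjusted p = 0.416). The list median was 0.08, and over all rows 4.41% were higher and 5.1% lower at that unadjusted threshold.

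Genes needed for maturation of sperm ADAMs gave 1 higher and 3 lower of 13 measured at the unadjusted threshold. The shares over all rows were 4.41% higher and 5.1% lower, and the list was given no test. Of the 13, 0 passed the adjusted test, and their median log2 fold change was -0.07. The lower genes were Calr3, a testis chaperone for ADAM3 (-0.77 ± 0.30), Ly6k, a membrane protein of germ cells (-1.04 ± 0.33), and Rnase10, an epididymal protein (-1.12 ± 0.26, SE). Calr3 and Rnase10 had both means under the guide, and Ly6k had its Dmrt1 KO mean under it. The groups overlapped for Calr3, with Control replicate 1 at 6.39 under Dmrt1 KO replicate 1 at 6.42. The higher gene was Lypd4 (1.17 ± 0.42, SE), also under the guide. Clgn, the chaperone calmegin that fertilin needs, gave -0.48 ± 0.28.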

How the data were processed

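Cy3-labelled testis RNA was read on NimbleGen mouse expression arrays of long oligonucleotides, per the labels' protocols. Each deposited value is a linear intensity for 1 RefSeq accession on 1 array, and RMA is named per the submitters' processing notes. No source used here gives its version. Log2 was taken of the deposited intensity with no further normalization. Accessions without version were named through the GRCm38.p6 annotation, which gave 17780 of 25631 rows a symbol.

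Each row was tested with limma 3.58.1 (R 4.3.3; lmFit and eBayes, 4 residual and 3.96 prior degrees of freedom), 3 Control against 3 Dmrt1 KO arrays, with no covariate, and p-values were adjusted by Benjamini-Hochberg over all rows at a threshold of 0.05. With 3 against 3 arrays the smallest two-sided p of an exact permutation test is 0.1, so none was used. Errors of fold changes are limma's moderated SE. The fit was also run on simulated data with independent noise of equal spread in all arrays. That simulation held no array groups and no outlying array, so it does not cover these features of the data. Replicates are numbered as deposited, and a shared number is no pairing. The number of arrays limits the precision.

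Every measured member is named. Values in every array are given for members with an unadjusted p under 0.05 or groups without overlap, for the highest mean in each role group, and for others chosen after their values were seen (Adam4, Adam7, Adam22, Adam30, Adamts18, second rows, genes low in Control replicate 3 and the list genes given by array). Members, lists, alternatives and the background guide were chosen with earlier results of these data known. Figures were drawn with matplotlib 3.10.9 in Python 3.11.15.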

Additional observations from a re-analysis of the deposited data

How the results depend on the processing

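The 14 alternatives were log2(value + 50), array medians subtracted, quantile normalization, a filter that drops the lowest 50% of rows, eBayes with trend and robust settings, array weights, array number groups as blocks (Dmrt1 KO replicate 3 then has no weight), the mean of rows per gene, and each array left out in turn. Adamts16 was tested in 13 of them, with a log2 fold change of 1.48 to 2.32, and passed in 8. With arrays left out in turn it ran from 2.21 to 2.32, and the number of members called higher from 0 to 1. The number called higher was 2 with array weights, where Adam18 joined (1.99), and 0 under the filter on low rows, which keeps 19 members and neither of these 2 nor any germ line ADAM gene, so that their median has no value there. No member was called lower under any of the 14. The medians of the 3 gene groups ran from 0.00 to 0.13 for germ line ADAMs, 0.14 to 0.24 for somatic ADAMs and 0.01 to 0.20 for ADAMTS and ADAMTS-like genes. The sign held under all alternatives for 35 members and changed under at least 1 for 16, each within 0.5 of 0 with all arrays. Over all rows 7 were higher and 1 lower, against 53 and 28 with trend and robust settings, 48 and 12 with array weights, 45 and 4 with the block, 44 and 3 without Dmrt1 KO replicate 3, 35 and 17 under the filter, 11 and 1 with log2(value + 50), 3 and 0 without Dmrt1 KO replicate 1, and 0 without any of the other 4 arrays. The labels carry no replicate numbers, so the array number group was the only block fitted. Differences of members under the background guide, and those that rest on Dmrt1 KO replicate 3, are the least certain, and most germ line ADAMs are in the first position.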
